A study of Mus musculus with 14 samples.

Results

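The exons described here were the cassette exons longer than 250 nt that the spinal cord RNA-seq covered. A cassette exon is one that is either kept in the mRNA or skipped as a whole. Members were chosen by 2 values of the deposited tables, the exon length and the number of junction reads, with at least 10 reads over the 2 inclusion junctions and the skipping junction in each of the 2 whole spinal cord (WSC) RNA-seq libraries. Of 13189 cassette exon events listed, 731 were longer than 250 nt and 478 of these had the reads in each library. The 478 events were 468 distinct exons in 428 genes, because some exons are listed with more than 1 neighbouring exon. They were 478 of 9396 covered events of any length. Of the 253 long events left out, 111 had no junction read in either library.

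The RNA-seq came from the spinal cords of 1 male and 1 female mouse, 12 weeks old, of the B6/SJL background and the genotype Tg(SOD1)2Gur/J, a line that carries a wild-type human SOD1 transgene. With 1 library per sex, the animal and its sex cannot be told apart. The deposited NOVA HITS-CLIP libraries, in which RNA crosslinked to the neuronal splicing factors of the NOVA family is recovered and sequenced as short tags, came from C57BL/6 mice 3 months old. Of these, 4 were WSC libraries of the endogenous protein, each from 1 wild type mouse, and 8 were motoneuron (MN) libraries from the spinal cords of mice hemizygous for Chat:GFP-Nova, 4 from line #6 and 4 from line #17, each from pooled animals. In these lines a GFP-tagged NOVA is made under the Chat promoter, which is active in cholinergic cells, motoneurons among them. The MN and WSC libraries therefore differ in the transgene, the protein, its tag, the antibody and the pooling of animals as well as in the cells, and these cannot be told apart.

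Most internal exons of vertebrate genes are short, because the splicing machinery usually recognizes the acceptor before an exon and the donor after it as a pair across the exon. Long internal exons are an exception. Many of them encode large unstructured or repeated protein segments, and some, known as poison exons, carry a stop codon in the reading frame and mark the mRNA for decay when they are kept. NOVA proteins bind clusters of the letters TCAT or TCAC and, with C in the first place, CCAT or CCAC (all called YCAY here), and their position relative to an exon is known to decide between inclusion and skipping.

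The libraries had the profile of spinal cord. Reads on genes came to 72006019 in the male and 65625173 in the female library. Snap25 of neurons stood at 2029 and 2084 RPKM (reads scaled to the exon length of the gene and to all reads on genes), Mog of oligodendrocytes at 143 and 166 RPKM, and the lumbar gene Hoxc10 at 25.2 and 18.5 RPKM. Chat stood at 9.2 and 10.4 RPKM. A tissue homogenate does not show whether an intermediate inclusion rate stands for a mixture of cell types or for both forms in 1 cell. The long exons had a median of 74 junction reads in the male and 61 in the female library, near the 86 and 75 of all covered exons, and medians of 180 and 153 reads on the exon body.

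The splice sites of 6 exons frame the range of outcomes described here, from an exon that was almost always skipped (Naca) to exons kept in nearly every transcript (Slc22a17). Coordinates and strand are those of mouse NCBIM37 (mm9). An acceptor is given with the last 20 nt of the intron and a donor with the first 6 nt of the intron, and capitals mark the 3 nt of exon at each junction.
Naca acceptor, chr10:127476207-127476229, plus strand: ttatttttgcttttctccagCTG
Naca donor, chr10:127482140-127482148, plus strand: AGGgtattt
Dst acceptor, chr1:34306629-34306651, plus strand: cttttttgaactttgtttagGTC
Dst donor, chr1:34306973-34306981, plus strand: AGGgtacct
Macf1 acceptor, chr4:123074661-123074683, minus strand: ttttccatctggatttccagGCT
Macf1 donor, chr4:123074331-123074339, minus strand: CTGgtattt
Wnk1 acceptor, chr6:119904248-119904270, minus strand: gtttttctttaccttctcagCTT
Wnk1 donor, chr6:119903783-119903791, minus strand: CAGgtatcg
Rtn3 acceptor, chr19:7532911-7532933, minus strand: cttttaaattctgaccatagCGG
Rtn3 donor, chr19:7530784-7530792, minus strand: CAGgtaacc
Slc22a17 acceptor, chr14:55527201-55527223, minus strand: ctcctgtctttcccccaaagAAC
Slc22a17 donor, chr14:55526717-55526725, minus strand: ATTgtgagc

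The next 8 sequences carry the NOVA finding. Each is the 30 nt around the point with the most WSC NOVA tags on or within 200 nt of an exon, and capitals mark YCAY.
Oprm1, exon of 353 nt, chr10:3517459-3517488, minus strand: gtTCACcagtatctTCACcctctgcaCCAT
Iqsec3, exon of 950 nt, chr6:121329566-121329595, minus strand: TCATtccTCATacagggagcctgggctccc
Wnk1, exon of 462 nt, chr6:119903980-119904009, minus strand: ctctgcTCACcttggctTCATctgctacag
Utp14b, exon of 418 nt, chr1:78678227-78678256, plus strand: caacaCCATcaaCCATgaagctaaaacaaa
Akap6, exon of 3388 nt, chr12:54243672-54243701, plus strand: tcgtaagcttTCATgaagatcgacatagta
Nfatc3, exon of 1138 nt, chr8:108602748-108602777, plus strand: catttctcctaactgTCATcaaggaacaga
Slc22a17, exon of 481 nt, chr14:55527104-55527133, minus strand: catctggaaaaatctgcttatcctgggctt
Rtn3, exon of 2124 nt, chr19:7532817-7532846, minus strand: ttctgaaatacataaccctgaccctacaac

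Long cassette exons were mostly included in the spinal cord. The inclusion rate is the mean of the 2 inclusion junction counts over that mean plus the skipping count, and it uses no reads on the exon body. Its median over the 478 events was 99.9% in the male and 98.2% in the female library, against 94.2% and 94.1% over all 9396 covered events. With the 2 libraries averaged, 272 long exons (56.9%) lay above 95%, 59 between 80 and 95%, 64 (13.4%) from 20 to 80%, 23 from 5 to under 20% and 60 (12.6%) under 5%. Over all covered exons 47.7% lay above 95%, 17.6% from 20 to 80% and 15.6% under 5%. No skipping read was found in either library for 193 of the long exons (40.4%), against 32.1% of all covered exons. These shares describe the exons and carry no test.

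Skipped exons were a smaller share of the longer classes. Of 153 exons of 251 to 300 nt, 19.6% had a rate under 5% and 50.3% a rate above 95%. Of the 180 exons of 301 to 500 nt, 13.3% and 57.8% had such rates, and of the 94 of 501 to 1000 nt, 3.19% and 63.8%. Above 1000 nt, 5.88% of 51 exons had a rate under 5% and 60.8% a rate above 95%. The step was not at the length used to choose them. The 72 members of 251 to 270 nt had a median rate of 95.2% and the 131 covered exons of 231 to 250 nt, just too short, one of 96.4%. The 8 shortest members were 251 nt long and the 3 longest exons left out were 250 nt long. On the other limit, 33 members had 10 to 14 junction reads in the library with fewer, and 36 long exons with 5 to 9 were left out.

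**Figure D1:**
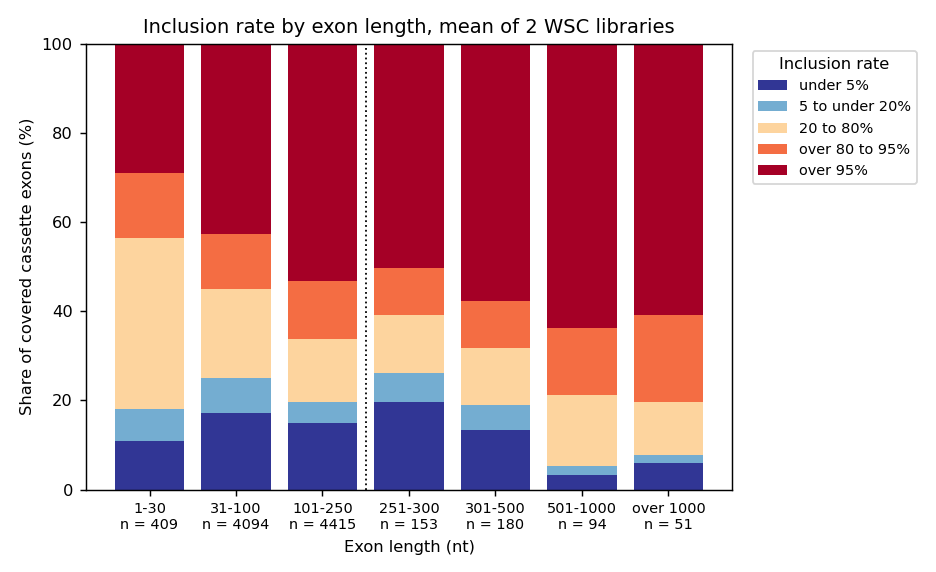
Stacked bars give the share (%) of covered cassette exons in 5 classes of inclusion rate (mean of the male and the female WSC library) for 7 classes of exon length in nt; the dotted line marks 250 nt and n is the number of exons. The share under 5% goes from 19.6% at 251 to 300 nt to 3.19% at 501 to 1000 nt, and the share above 95% from 50.3% to 63.8%.

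The sequence and annotation of the long exons set them apart from the other cassette exons in several descriptive ways. Of the 478, 472 could be placed on mm9, and 414 of these (87.7%) were annotated internal exons, against 85.0% of all covered exons that could be placed. Their median GC content was 52.9%, against 50%. Fewer were a multiple of 3 nt long, 198 of 478 (41.4%) against 46.3%. This did not set them apart from the covered exons of the length class that ends at 250 nt, where the share was 41.6%. In the shortest length class it was 74.8%. Among the 64 long exons with rates of 20 to 80%, however, 40 (62.5%) were a multiple of 3, as were 65.3% of all covered exons in that range. Coding sequence filled 249 of the 472 (52.8%, against 64.0%), and another 119 (25.2%, against 9.71%) held both coding and untranslated sequence, the place where a protein starts or ends.

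Stop codons were common in the long exons that were skipped. Of 342 long exons whose reading frame could be read from the annotated coding exon before, 241 were open throughout, 96 (28.1%) held a stop codon in that frame, and 5 were open in some transcripts and not in others. Over all covered exons 18.8% held a stop. Among long exons with a rate under 20%, 49 of 63 (77.8%) held a stop, against 57.7% of all covered exons in that range. Among those with rates of 20 to 80% the share was 7 of 44 (15.9%), against 16%, and above 80% it was 40 of 235 (17.0%), against 6.91%. A longer stretch of sequence has more places for a stop codon by chance, so that these shares are not comparable exon for exon with those of short exons.

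Donor sites of the included long exons were nearer to the most common letters. The most common base at each of the 9 donor positions over all covered exons spelled CAGGTAAGT. Long exons with a rate above 80% matched it at 6.45 ± 0.97 positions (SD over 326 exons), and 14.4% of them at 8 or more. Those with a rate of 20 to 80% matched at 5.98 ± 0.95 (64 exons), 3.12% of them at 8 or more, and those under 20% at 5.98 ± 0.87 (82 exons), 1.22% of them at 8 or more. Over all covered exons the shares with 8 or more were 9.95%, 7.91% and 5.29% in the same order. The mean share of C and T in the 17 nt before the acceptor's last 3 letters was 75.9% in long exons above 80%, 76.1% in those from 20 to 80%, and 72.3% in those under 20%. AG acceptors and GT or GC donors were used to place 135 of the long exons, so that the presence of these letters themselves is no finding. Match and outcome need not go together in a given exon. The Slc22a17 donor shared 4 of the 9 letters and its exon had rates above 99% in each library, while the Sfrs6 donor shared 7 and its exon had rates of 3.02% and 1.93%.

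Of the 10 longest exons all but that of Naca had a rate above 60% in each library. Naca encodes a subunit of the nascent polypeptide-associated complex, and its largest exon belongs to a muscle form. At 5916 nt (chr10:127476227-127482142) it was the longest of all and was skipped. In the male library 249 reads skipped it and 0 and 6 reads joined it to the exon before and after, a rate of 1.19% (95% Wilson interval 0.41 to 3.44). In the female library 187 reads skipped it and none joined it (0%, upper bound 2.01). The muscle genes Acta1 and Ckm stood at 0.397 and 0.215 RPKM in the male library and 0.776 and 0.140 RPKM in the female one. Intervals are for counting error alone.

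Akap6, which anchors protein kinase A near the nucleus, had an exon of 3388 nt (chr12:54240368-54243755) with 126 and 235 inclusion reads in the male and 133 and 187 in the female library, and no skipping read in either. Its rate was 100% in each, with lower bounds of 97.9% and 97.7%. The exons of Tro (trophinin, 3962 nt), Dmn (the intermediate filament protein synemin, 2447 nt), Shank3 (a scaffold of excitatory synapses, 2257 nt) and Vcan (the matrix proteoglycan versican, 2880 nt) also had no skipping read in either library. Those of Rai1 (a transcriptional regulator, 5527 nt), with rates of 100% and 91.9%, Zhx1 (a zinc finger and homeobox protein, 2859 nt), with 94.9% and 93.4%, and Ncoa6 (a nuclear receptor coactivator, 2976 nt), with 87.3% and 100%, had between 0 and 5 skipping reads a library. Esco1, an acetyltransferase of cohesin with an exon of 2130 nt, had 11 skipping reads in the male library and none in the female one, for rates of 64.5% and 100%.

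Rtn3, a reticulon of the endoplasmic reticulum, had an exon of 2124 nt (chr19:7530790-7532913) in the next place by length, with counts that pulled apart. No read joined it to the exon before in either library, 234 and 183 reads joined it to the exon after, and 527 and 473 skipped it. The resulting rates, 18.2% and 16.2%, rose to 35.6% and 33.8% when the reads on its body (8542 and 7082) were added on a common scale of reads per possible start position.

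**Figure D2:**
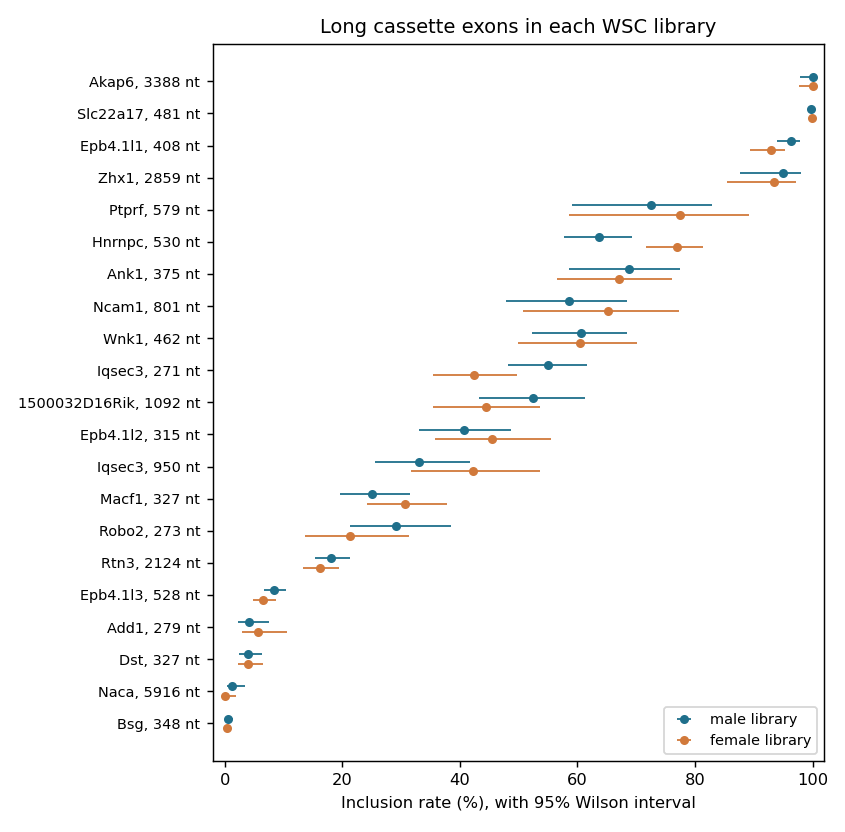
Points give the inclusion rate (%) of 21 long cassette exons in the male and the female WSC library, with 95% Wilson intervals as bars; exons are ordered by the mean rate. The rates run from 0.64% and 0.38% for Bsg to 100% in each library for Akap6, and the intervals of the male and female library overlap for most exons in between.

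Many of the most deeply covered long exons lay at either end of the scale. Eef1a1, the translation elongation factor, had an exon of 577 nt with 2375 and 3243 reads on its 2 inclusion junctions in the male and 2092 and 3037 in the female library, and none for skipping. Atp2a2, the calcium pump of the endoplasmic reticulum (336 nt), had rates of 99.8% and 100%, Ttc3 (327 nt), a ubiquitin ligase, 100% in each, and Slc22a17 (481 nt), the receptor of lipocalin-2, 99.7% and 99.9%. At the other end, an exon of 407 nt in Atp1b2, a subunit of the sodium pump, had 2384 and 2174 skipping reads against 2 reads on 1 inclusion junction in each library. One of 283 nt in Laptm4a, a lysosomal membrane protein, had 2013 and 1791 skipping reads against none in the male and 12 and 6 inclusion reads in the female library. The exon of Bsg, the immunoglobulin-family protein basigin (348 nt, chr10:79171442-79171789), had 930 and 929 skipping reads and rates of 0.64% and 0.38%. In Mbp, the myelin basic protein, an exon of 431 nt had 18535 reads on the junction to the exon after in the male library and 44 on that to the exon before, with 1 skipping read.

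Such a gap between the 2 inclusion junctions was frequent. Of 409 long exons with 20 or more inclusion reads in the 2 libraries together, 148 (36.2%) had more than 3 times as many reads on one junction as on the other, against 32.8% of all covered exons. The junction to the exon before was the lower one in 98 of the 148 (24.0% of the 409, against 19.6%), and the junction to the exon after in 50 (12.2%, against 13.2%). For these exons the rate, which averages the 2 junctions, is not the share of transcripts that hold the exon as a cassette. Hnrnpc, which binds nascent RNA, was the clearest case among the intermediate exons. Its exon of 530 nt (chr14:52717690-52718219) had 4 and 8 reads to the exon before, 329 and 431 to the exon after, and 95 and 66 skipping reads. The exon is not annotated, and it had only 84 and 74 body reads, or 0.081 and 0.054 body reads per start position for each inclusion junction read per start position.

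Of the 64 long exons with a mean rate of 20 to 80%, 37 were coding throughout (57.8%, against 63.7% of all covered exons in that range), and of the 44 whose frame could be read 35 were open (79.5%, against 82.7%). In 47 of the 478 the rate lay from 20 to 80% in both libraries (9.83%, against 12.9% of all covered exons). The 12 of these with most junction reads are described next, and 9 of them were coding throughout with an open frame. Wnk1, a kinase that regulates chloride cotransporters, had an exon of 462 nt (chr6:119903789-119904250) with rates of 60.6% and 60.5%, the nearest agreement of the 12. Macf1, a giant linker of actin and microtubules, had an exon of 327 nt with 25.1% and 30.6%. Epb4.1l2 (315 nt), of the protein 4.1 family that ties spectrin and actin to the membrane, had 40.7% and 45.5%, and Ank1 (375 nt), an ankyrin that anchors membrane proteins to spectrin, 68.7% and 67.1%.

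Iqsec3, an exchange factor for Arf proteins at inhibitory synapses, was among these 12 with 2 long exons. That of 271 nt (chr6:121378315-121378585) had rates of 55.0% and 42.5%, with 95 and 103 skipping reads, and that of 950 nt (chr6:121328978-121329927), which holds an in-frame stop and is partly coding, 33.1% and 42.3%. The male library was the higher for the shorter exon and the lower for the longer one, and neither difference passed the test between the libraries (two-sided Fisher's exact test with Benjamini-Hochberg adjustment, adjusted p = 0.152 and 0.417). The others of the 12 were the exons of 1500032D16Rik (1092 nt, 52.4% and 44.4%), Zmiz1 (255 nt, 66.5% and 80%), Arhgap21 (275 nt, 36.3% and 32.0%), Rusc1 (411 nt, 21.9% and 25.4%) and Arid4b (261 nt, 72.4% and 56.3%), with Hnrnpc, given above.

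A list of cytoskeletal genes, mainly ankyrins, spectrins, protein 4.1, plakins, septins and microtubule proteins, held 10 of the long events (2.09%, against 1.19% of all covered events), and these spread over the whole range. The list is not complete, and Dmn and Fhod3, named elsewhere, are not on it. The same Sept4 exon entered with 2 listings, both above 80%, so that the 10 events are not separate exons. Of the 10, 4 had a mean rate under 20%, 3 from 20 to 80% and 3 above 80%, and none was called by the test between the libraries described further on, against 8 of the 112 covered events of the list (7.14%) and 4.26% of all covered events. The protein 4.1 genes each had a long exon. Epb4.1l1 (408 nt) had rates of 96.3% and 92.8%, Epb4.1l2 the 40.7% and 45.5% given above, and Epb4.1l3 (528 nt, chr17:69615245-69615772) 8.32% and 6.53% with 782 and 587 skipping reads. Epb4.1 itself (450 nt) had 2.22% and 22.2% on 22 and 7 skipping reads, with intervals that overlapped, and its mean rate of 12.2% became 44.8% when body reads were added. The intervals of the 3 homologues with more reads did not overlap in either library.

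The plakin genes Dst and Macf1, which encode related linker proteins of the cytoskeleton, each had a cassette exon of 327 nt. Aligned end to end without gaps, 200 of the 327 bases (61.2%) of these exons were equal. The Dst exon (chr1:34306649-34306975) had 385 and 331 skipping reads and rates of 3.99% and 3.92%, and the Macf1 exon (chr4:123074337-123074663) 149 and 120 skipping reads and rates of 25.1% and 30.6%. The intervals of the pair did not overlap in either library, with 6.53% the highest bound for Dst and 19.6% the lowest for Macf1. No inclusion read of the Dst exon crossed the junction to the exon after, in either library. Sept4, a septin, had an exon of 297 nt listed with 2 neighbours, with rates of 95.04% and 94.95% in the first listing and 99.7% and 99.2% in the second. Add1, an adducin that caps actin (279 nt), had 4.21% and 5.72%.

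Genes of adhesion and matrix held 7 long events (1.46%, against 0.692%), of which 4 had rates of 20 to 80%, 3 above 80% and none below 20%. Ncam1, the neural cell adhesion molecule, had an exon of 801 nt (chr9:49314958-49315758) with 35 and 16 skipping reads and rates of 58.6% and 65.2%. Ptprf, a receptor phosphatase, had an exon of 579 nt with 72.5% and 77.4% and one of 306 nt with 27.3% and 28.6%. Robo2, a receptor of Slit guidance cues, had one of 273 nt with 29.2% and 21.2%. The exons of Vcan, Ncan (neurocan, 399 nt) and Tnr (tenascin-R, 477 nt) had rates of 94.6% or more.

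Genes of RNA processing held 9 long events (1.88%, against 1.33%), 4 under 20%, 4 above 80% and that of Hnrnpc between. The exons of Hnrnpc and Srrm1 were called between the libraries (2 of 9, against 5.6% of the 125 covered events of the list), that of Srrm1 on body reads alone. Sfrs6, an SR protein, had an exon of 268 nt with an in-frame stop and rates of 3.02% and 1.93%. Those of Srrm1 (282 nt), Rbm39 (274 nt) and Sfrs7 (460 nt) had from 0 to 8 reads on either inclusion junction in each library and rates of 0 to 7.94%. With body reads added, the mean rates of Srrm1, Rbm39 and Sfrs7 were 40.0%, 55.5% and 39.1%, no longer under 20%, and that of Sfrs6 went from 2.48% to 12.9%. The exons of Sfrs3 (456 nt) and Sfrs5 (266 nt) held an in-frame stop too and were listed without a skipping read, at 100% in each library. The Sfrs5 exon had 446 and 414 reads on the junction to the exon after, 0 and 2 on that to the exon before, and 3 and 12 on its body. Genes with a zinc finger symbol (Zfp, Zbtb, Zscan and the like, which leaves out Zhx1) held 13 events (2.72%, against 1.37%), of which 12 had rates above 80% (92.3%, against 56.6% of the 129 covered events of these genes), with Zfp644 (606 nt) at 98.0% and 100%. The exception was an unannotated exon of 317 nt in Zfp410, at 0% and 5.26%. Zfp142, Zfp192, Zkscan3 and Zfp444 each entered with overlapping forms of the same exon, so that the 13 events are not separate exons.

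Reads on the body of a long exon give a check on its junction reads that the rate did not use. Per possible start position of a 74 nt read, the body of long exons held a median of 1.47 times the mean of the inclusion junctions (435 events, quartiles 0.964 and 2.07), and that of all covered exons long enough to hold a read 1.64 times (6016 events, quartiles 1.01 and 2.90). The ratio was above 3 in 51 of the 435 (11.7%, against 24.0%) and below 0.5 in 34 (7.82%, against 6.60%). The Ank1 exon stood high, at 5.39 and 4.51, and the Slc22a17 exon low, at 0.467 and 0.454. With body reads added to the rate, 13 of the 83 long exons under 20% moved to 20% or more (15.7%, against 7.21% of all covered exons), 50 of the 64 from 20 to 80% stayed in that range (78.1%, against 91.3%), and 8 of the 331 above 80% fell to 80% or less (2.42%, against 0.211%). Of the 26 long exons without an inclusion junction read in either library, 6 had 20 or more body reads, such as Srrm1 with 75 and 104.

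Between the male and the female library, 21 of the 478 long exons were called (two-sided Fisher's exact test on the deposited inclusion and skipping counts, Benjamini-Hochberg adjusted over all 9396, FDR 0.1), or 4.39%, near the background of 4.26% (400 exons). The test compares 2 libraries and not the sexes, and its p-values cover counting error only. Of the 21, 7 were included more often in the male and 11 in the female library, and 3 had 0% in each, where the call came from exon body reads alone. Over all 400 exons called, 201 were higher in the male and 185 in the female library and 14 were equal. On junction reads alone 19 long exons were called (3.97%, against a background of 3.3%), 13 of them among the 21.

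The largest differences called were in 10 events of 9 genes. Aen, a nuclease induced by p53, had 2 of them, exons of 487 nt (chr7:86047230-86047716) and 601 nt (chr7:86047116-86047716) that share a donor. The shorter form had 46 skipping reads and 21 and 26 inclusion reads in the male library and 19 against 71 and 48 in the female one, for rates of 33.8% and 75.8% (adjusted p = 0.000348). The longer form had rates of 34.3% and 62.0% (adjusted p = 0.00443, same exact test), on the same skipping reads. The 2 forms differ in their acceptors.

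Ankrd17, an ankyrin repeat protein (753 nt, chr5:90711876-90712628), went the other way, with 22 skipping reads and a rate of 65.6% in the male and 44 and 34.8% in the female library (adjusted p = 0.00383, exact test). Its relative Ankhd1 (759 nt) had no skipping read in the male and 13 in the female library, for rates of 100% and 50% (adjusted p = 0.00236, exact test). Cyb561, an electron transporter of secretory vesicles (279 nt), had 43.3% and 87.1% on 19 and 2 skipping reads. Arfgap1 (281 nt), a GTPase activator of the Golgi, had 27.7% and 50%, Ggps1 (288 nt), which makes geranylgeranyl diphosphate, 58.0% and 28.3%, Fars2 (633 nt), a mitochondrial tRNA synthetase, 100% and 76.5%, and Fhod3 (357 nt), a formin, 45.9% and 100%. Esco1 completed the 10. Of 478 long exons 77 (16.1%, against 16%) differed by 10 points or more.

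**Figure D3:**
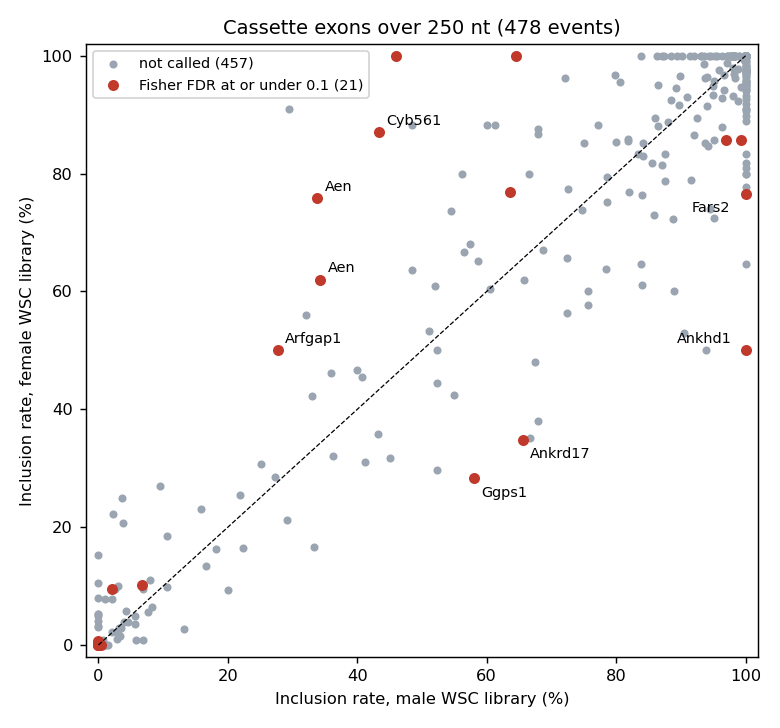
Each point is 1 of 478 long cassette exon events, with the inclusion rate (%) in the male WSC library on the horizontal and in the female WSC library on the vertical axis; the dashed line marks equal rates. The 21 events called by Fisher's exact test (red) lie on both sides of the line, with Aen, Cyb561 and Arfgap1 above it and Ankrd17, Ggps1, Fars2 and Ankhd1 below.

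NOVA tags in the spinal cord were denser on the long exons than on the shorter ones. Of 461 distinct long exons with a place on mm9, 407 (88.3%) had at least 1 WSC tag on the exon or 200 nt of intron on each side, and 200 (43.4%) had 10 or more, against 75.2% and 21.4% of all 8921 covered exons. A longer exon offers more room for a tag, so that densities were compared. Density does not remove every effect of length. The WSC tags, with medians of 44 to 46 nt, were mapped to the genome, where a tag across an exon junction can be lost. Such a loss weighs more on a short exon, and its part was not tested. The mean density on the exon was 4.86 ± 0.30 for long exons in RPKM (here CLIP tags scaled to kb of exon and to the unique tags of the library) (SD over 4 WSC libraries) and 2.70 ± 0.18 for the 8460 exons of up to 250 nt. In the 200 nt before the exon the densities were 0.45 ± 0.03 and 0.70 ± 0.01, and in the 200 nt after it 0.76 ± 0.06 and 0.85 ± 0.02. In each of the 4 libraries the exon density was higher for the long exons than for the others, with no overlap, and the density before the exon lower, with no overlap.

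**Figure D4:**
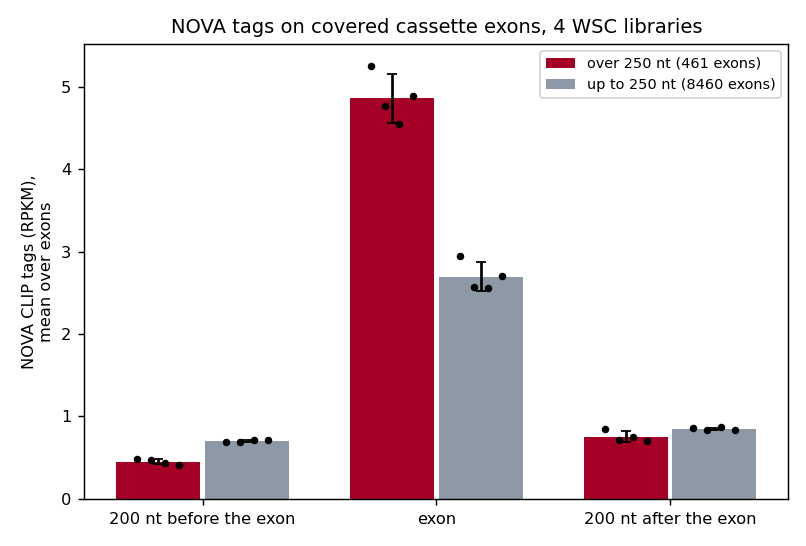
Bars give the mean density of NOVA tags (RPKM, mean over exons) in the 200 nt before the exon, on the exon and in the 200 nt after it for long and other covered cassette exons; points are the 4 WSC CLIP libraries and error bars the SD over them. On the exon the long exons stand at 4.86 and the others at 2.70, and before it at 0.45 and 0.70.

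Few exons carried a large share of these tags. The 10 long exons with most tags held 39.6% of them, and without these the mean exon density was 3.11, against 2.57 for the other exons without their own first 10. The median was 10.9 tags per kb of exon in the 4 libraries pooled, against 0 for the exons of up to 250 nt. At equal density a short exon more often holds no tag, so that these medians are no contrast in binding. Motif content differed little, with a median of 1.66 YCAY per 100 nt of long exon and 1.43 over all covered exons, and 1.5 in the 200 nt before and after the exon for each set. Transcript abundance enters tag counts, and its part was not tested.

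The point with the most tags lay on the exon in 169 of the 200 long exons with 10 or more tags (84.5%), before it in 15 and after it in 16. The flanks are 200 nt for every exon, so that the length used to choose these exons favours a maximum on the exon. Of these 200 points, 162 (81.0%) had at least 1 YCAY within the 30 nt around them and 80 (40.0%) at least 2. The same was true of 79.2% and 36.4% of the points of all 1908 covered exons, and of 35.2% and 7.59% of all 30 nt windows of covered exons and flanks. The match of points and motif was thus shared by long and short exons. A match describes the letters and not a site of action.

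The exon of Wac (309 nt), an adaptor in transcription-coupled ubiquitylation, had the highest density, 267 ± 14.4 RPKM of CLIP tags (SD, n = 4 WSC libraries), with 1424 tags on the exon and none in the flanks. Its rates were 99.2% and 85.8%, a difference called between the RNA-seq libraries (adjusted p = 0.000495, exact test). In Oprm1, the mu-opioid receptor, 2 long exons were among the 10 most densely tagged, although the gene stood at only 2.55 RPKM of RNA-seq reads in the male library. The exon of 353 nt had 118 ± 13.1 RPKM of CLIP tags, and its 30 nt at the maximum, crossed by 79, 124, 109 and 48 tags in the 4 libraries, hold 3 YCAY. The exon of 302 nt had 69.9 ± 5.72, with a further 52.6 ± 8.62 in the 200 nt after it. Neither exon had a skipping read.

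The Wnk1 exon of intermediate inclusion had 105 ± 14.1 RPKM of CLIP tags, with 852 of its 853 tags on the exon, and the Iqsec3 exon of 950 nt 91.1 ± 3.95, with 1494 of 1505. Each has 2 YCAY in the 30 nt at the maximum. Slc22a17 (82.0 ± 11.9) has none in its 30 nt. The exon listed under the symbol Utp14b (418 nt) had 73.5 ± 12.3, and this symbol was not checked against the exon's sequence. Wwp1 (325 nt, a ubiquitin ligase) had 60.4 ± 12.6, Zfp644 40.0 ± 2.16 and Akap6 38.8 ± 3.52. Of the 10 exons, those of Wnk1 and Iqsec3 had intermediate rates and the other 8 had rates above 85% in each library.

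The 8 MN libraries held 2023726 unique tags together and the 4 WSC libraries 17353049. Between MN and WSC 8 of the 461 long exons passed the filter on low counts, which asks for enough tags in 4 libraries, so that the WSC libraries alone could carry an exon through it. In the edgeR quasi-likelihood fit over the 20 covered exons that passed, 7 of the 8 had fewer tags in MNs and none more, at FDR 0.01. The background was 65% lower (13 of 20) and 10% higher (2 of 20), and the median log2 difference of the 20 was -1.05. The study reported a lower exonic and a higher intronic share of CLIP reads in MNs than in WSC. The part of this in the differences was not tested. Since the filter keeps exons with many WSC tags and so favours lower values in MNs, the count supports nothing on the long exons in general. Without replicate 3 of line #6, replicate 4 of line #17 or any WSC library, 3 long exons could be tested and 2 were lower, and without another MN library 10 to 12 of 13 or 14 were. Over all exons tested, 5 or 6 of 8 or 9 were lower in the former fits and 19 to 21 of 30 to 33 in the latter. The log2 differences of the 8 long exons ran from -3.08 (Oprm1) and -2.64 (Slc22a17) to -0.39 (Iqsec3). The median of the 20 comes from exons kept by the same filter, so that it sets none of them apart.

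The Oprm1 exon of 353 nt had 102 to 232 tags in each WSC library, or 37.3 to 46.1 RPM (tags scaled to the unique tags of the library), and from 0 to 4 tags, or 0 to 10.98 RPM, in the 8 MN libraries, of which 4 had none. All 8 MN values lay below the 4 WSC values. For Slc22a17 the WSC libraries held 34.9 to 45.7 RPM and the MN libraries 0 to 21.3, 4 of them none. Both exons, like those of Wac, Wnk1, Rtn3 and Nfatc3, passed the filter through their WSC tags. Their tests are therefore given from the fit without it, over all 7079 exons with a tag. The median log2 difference in that fit was -0.794 over the 7079 and -0.795 over its 421 long exons. There the log2 difference of Oprm1 was -3.09 ± 0.41 (SE, adjusted p = 7.54e-11 in edgeR) and that of Slc22a17 -2.65 ± 0.38 (adjusted p = 4.07e-09 in edgeR). In the filtered fit the differences were -3.08 and -2.64, and these 2 exons were lower in MNs under each scaling tried. In Wac (76.5 to 86.9 RPM in WSC, 0 to 32.9 in MNs) the difference was -1.61 ± 0.27 without the filter (adjusted p = 1.01e-06 in edgeR). In the filtered fit it was -1.60 ± 0.20. With TMM factors (scaling factors of edgeR) from the tested exons alone it was -0.54 and no longer called (adjusted p = 0.0144 in edgeR).

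The Iqsec3 exon of 950 nt had 81.6 to 90.5 RPM in WSC and 32.9 to 117 in MNs, so that the groups overlapped, and its difference of -0.39 ± 0.16 did not pass the threshold (adjusted p = 0.0214 in edgeR). Without the filter the difference was -0.38 ± 0.22 (adjusted p = 0.437 in edgeR). Its sign depended on the scaling, with +0.26 in DESeq2 and +0.67 with TMM factors from the tested exons alone. In the filtered fit Akap6 (-0.88), Rtn3 (-0.80), Wnk1 (-1.02) and Nfatc3 (-1.47) were called lower. Without the filter Akap6 (-0.87, adjusted p = 0.00543 in edgeR) and Nfatc3 (-1.46, adjusted p = 0.000701 in edgeR) were still called. The Akap6 value lay near the median of -0.794 over all exons of that fit. With TMM factors from the tested exons alone Akap6, Rtn3 and Wnk1 turned to +0.17, +0.27 and +0.03 and Nfatc3 to -0.42, and none of the 4 was called. In DESeq2 the calls of Akap6 (adjusted p = 0.815), Rtn3 (0.174) and Wnk1 (0.0129) ended too, and without the filter those of Rtn3 (0.0688 in edgeR) and Wnk1 (0.0106). For line #6 alone Rtn3 (0.0213) and Nfatc3 (0.0134 in edgeR) were not called, nor was Rtn3 for line #17 alone (0.11). No exon was called between the lines #6 and #17 in edgeR (0 of 20 at FDR 0.01, 2 at an unadjusted p under 0.05).

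**Figure D5:**
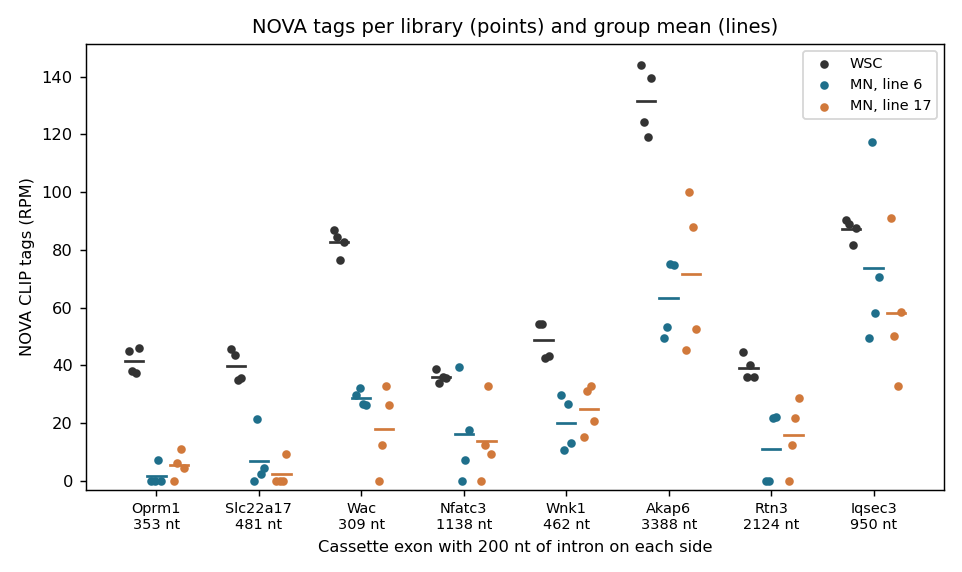
Points give the NOVA tags (RPM) on 8 long exons with 200 nt of intron on each side in each of 4 WSC libraries, 4 MN libraries of line 6 and 4 of line 17; short lines are group means. MN values of Oprm1 and Slc22a17 lie below the 4 WSC values, whereas those of the Iqsec3 exon span 32.9 to 117 and overlap the WSC values of 81.6 to 90.5.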

How the data were processed

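For the RNA-seq, the authors mapped 74 nt reads to mm9 and exon junctions with OLego and deposited counts per gene, with RPKM, and per cassette exon (body, both inclusion junctions, skipping), made with Quantas. For the CLIP, the authors deposited unique tags, mapped to mm9 with novoalign, as intervals with a score that was not used. Rates recomputed from the junction counts equalled the deposited rates. Exon offsets were placed on mm9 gene by gene through GENCODE M1 exons. Where these gave no match, AG acceptors and GT or GC donors were sought at all splice sites of the gene's listed events. Tags were counted by their midpoint on the exon with 200 nt of intron on each side.

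Fisher's exact tests (scipy 1.17.1) and the edgeR 4.0.16 quasi-likelihood fit (filterByExpr, TMM factors from tags per gene) ran over all covered exons and were tested on simulated data. Intervals are 95% Wilson intervals. No source states that the 2 RNA-seq mice or the libraries of a line came from different litters, so that edgeR p-values measure the spread between these libraries, while Fisher p-values, with 1 library a side, cover counting error only. Named exons were the 10 longest, the 10 with most junction reads, the 12 intermediate ones with most reads, the 10 largest differences called between the libraries, the 10 with most NOVA tags per kb of exon and those tested in CLIP, and members of 4 gene lists. The members, the lists and the rule were chosen with earlier results of these data known. Hnrnpc, Rtn3 and the exons below 1% were singled out for their counts. Some items of the marker check are not reported here.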

Additional observations from a re-analysis of the deposited data

Results flagged for a closer look

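In 3 of 36 sets of 4 libraries of 1 group, for the exons with most NOVA tags per kb or tested between MN and WSC, 1 library lay far from the other 3 by Dixon's criterion at the 95% level. In each of the 3 the other libraries held no tag, so that any tag meets the criterion, and the rate of about 1 of 20 that chance gives for it does not apply. The Slc22a17 exon had 9.18 RPM (tags scaled to the unique tags of the library) in replicate 4 of line #17 (8 tags) and none in the other replicates of that line. The Oprm1 exon of 353 nt had 7.26 RPM in replicate 3 of line #6 (3 tags) and none in the others, and the Oprm1 exon of 302 nt had 3.44 RPM in replicate 4 of line #17. The 2 libraries named are the deepest of their line.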

How the results depend on the processing

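The median inclusion rate of the long exons, 97.7% with the libraries averaged, moved by less than the spread between the libraries when inclusion reads were summed, body reads were added, the read minimum was changed, 1 event per exon was used or exons over 500 nt alone were kept. Taken from 1 library it ranged from 98.2 to 99.9%. The number of exons called between the libraries stayed within 1.5 times of 21, from 16 at FDR 0.05 to 22 with a minimum of 20 reads. The body to junction ratio was 1.46 with 1 event per exon and 1.38 to 1.39 with 1 library. Of 80 named rates, 24 moved by more than the difference between the libraries with body reads added and 26 with inclusion reads summed. In CLIP the number of long exons lower in MNs was 7 of 8 tested, against 4 in DESeq2 and 2 with TMM from the tested exons alone (an alternative chosen after seeing the data). Over all 20 exons tested these fits gave 13, 9 and 3. Without the filter on low counts 21 of 421 long exons were lower, against 59 of all 7079. For line #17 alone 18 of 44 were, against 46 of all 164. Leaving out 1 library gave 2 to 12 lower and 0 higher, against 5 to 21 lower and 0 to 5 higher over all exons tested. The number higher in MNs was 0, against 1 with TMM from the tested exons alone, 9 without the filter, and 1 for line #17 alone. Over all exons tested 2, 6, 100 and 19 were higher, in the same order. With TMM from the tested exons alone the log2 difference of Akap6 turned to 0.17, of Wnk1 to 0.031, of Rtn3 to 0.27 and of Iqsec3 to 0.67, and that of Iqsec3 was 0.26 in DESeq2. The median log2 difference of the 20 exons tested, -1.05, was -0.64 in DESeq2 and 0.0014 with the latter factors. Without the filter the median over all 7079 exons was -0.794. The cause was not tested. With replicate numbers as a block 7 long exons were lower and 0 higher, against 13 and 3 of all 20. The numbers did not pair the libraries, since same-numbered libraries deviated together with correlations of -0.313 to 0.289. The number of long exons tested followed the minimum of the filter, with 3 to 14 when 1 library was left out. The MN libraries held 65961 to 871804 tags each, so that a few tags decide an MN value.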
